A study of Rattus norvegicus with 6 samples.

Results

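The immediate early response genes were examined in glomerular isolates of male Sprague-Dawley rats, with RNA hybridised to 6 Affymetrix arrays. The PEC-enriched isolates, held back by the 90 µm sieve, were mostly or in large part capsulated glomeruli, which keep Bowman's capsule and its lining of parietal epithelial cells (PECs), and each also held decapsulated glomeruli. The PEC-deprived isolates, collected on the 75 µm sieve, were mainly decapsulated glomeruli, with few or no capsulated glomeruli counted in them. There were 3 arrays of each, all from minced kidney cortex washed through sieves with ice-cold buffer, and no treatment of the animals is described. Each isolate is a mixture of glomerular cells that keeps podocytes, endothelium and mesangium, and the content of tubule fragments differed between preparations, from none to a minor share. The methods name 3 animals and an individual rat for each preparation, and do not state which isolates share a rat. The genes, 10 in all, were chosen by name: Fos, Fosb, Jun, Junb, Egr1, Atf3, Dusp1, Nr4a1, Ier2 and Zfp36. Each gene was read from its probeset annotated with exactly 1 gene symbol (the one with the highest mean where there are several), and 9 of the 10 had such a probeset, among 14506 genes on the arrays. Fosb had none and was not analysed here.

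Immediate early genes are switched on within minutes of a stimulus, from transcription factors that the cell already holds and without new protein synthesis. Signals through MAP kinases reach serum response factor and its ternary complex partners at CArG boxes, and signals through cyclic AMP and calcium reach CREB at cAMP response elements. The products include transcription factors that pass the signal on and inhibitors that end it, and in kidney the group is known to respond to ischaemia and to the handling of tissue.

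All 9 measured genes had a lower mean in PEC-enriched than in PEC-deprived isolates. The log2 fold changes, PEC-enriched minus PEC-deprived, ran from -0.58 for Dusp1 to -0.18 for Jun, with a median of -0.40, against a median of -0.02 over all genes. On a linear scale these were levels of 0.671 to 0.88 of those in PEC-deprived isolates. A lower mean was found in 55.2% of all genes. In 4 of the 9 genes, Dusp1, Ier2, Junb and Zfp36, every PEC-enriched array lay below every PEC-deprived array, against 9.0% of all genes, and in the other 5 the groups overlapped. No member was separated in the other direction, against 9.68% of all genes. None of the 9 passed an adjusted p under 0.01 in limma, the threshold of the study's methods. None of all genes did either (0 of 14506, 0.0%). The study's own Bayesian t-test did select genes at this threshold on the same arrays, Dusp1 among them. At an unadjusted p under 0.05 there were 5 lower members (Dusp1, Ier2, Junb, Zfp36 and Atf3), against 5.65% of all genes, and 0 higher members, against 7.96%. A regularised t-test, in which each variance is combined with that of probesets of like level, also called 0 of the 9 at an adjusted p under 0.01, against 0.0138% of all genes called lower. In whole isolates, fewer cells of a type and less RNA per cell cannot be told apart.

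**Figure D1:**
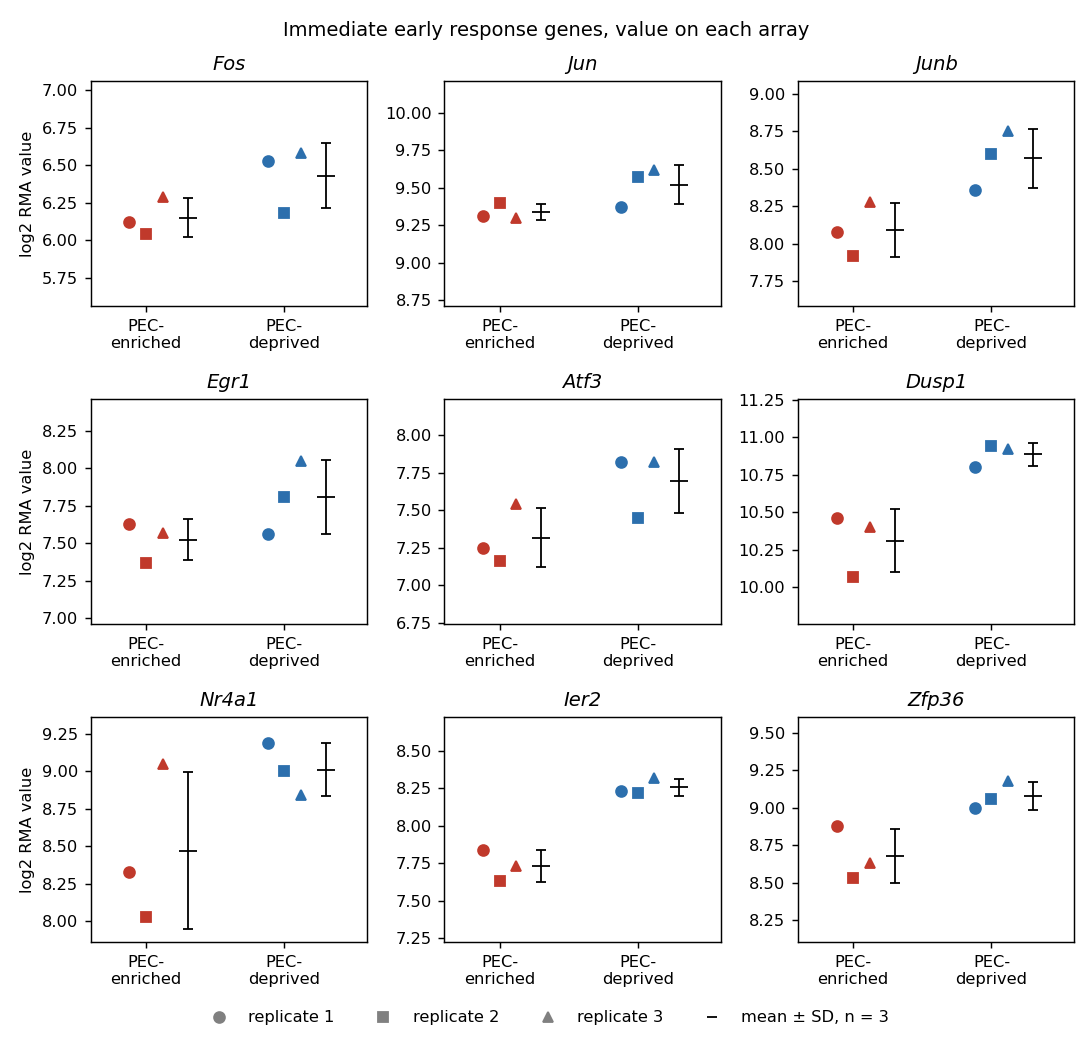
log2 RMA value (y axis, each panel spanning the same range of log2 units) of the 9 measured immediate early response genes on each array, PEC-enriched at left and PEC-deprived at right, with the mean and SD of 3 arrays beside the points. In Dusp1, Ier2, Junb and Zfp36 the groups are separate, while in Nr4a1 the PEC-enriched replicate 3 lies at 9.05 among the PEC-deprived arrays.

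Fos, Jun and Junb encode subunits of the AP-1 transcription factor, in which a Fos protein pairs with a Jun protein through leucine zippers. Fos (probeset 10886031) had log2 values of 6.12, 6.04 and 6.29 on the PEC-enriched arrays, against 6.53, 6.18 and 6.58 on the PEC-deprived arrays. The groups overlapped, because PEC-deprived replicate 2 lay below PEC-enriched replicate 3. All of its values stood below the array medians of 6.69 to 6.75, and signal over background is unknown. Its log2 fold change was -0.28 (95% interval -0.58 to 0.02, standard error 0.131, limma adjusted p = 0.532). Jun (probeset 10878112) had the smallest difference of the group, with 9.31, 9.40 and 9.30 in PEC-enriched and 9.37, 9.57 and 9.62 in PEC-deprived isolates. The overlap was small and came from PEC-enriched replicate 2 and PEC-deprived replicate 1. For Jun the log2 fold change was -0.18 (95% interval -0.41 to 0.04, standard error 0.0995, limma adjusted p = 0.616).

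Junb encodes a Jun protein that binds the same sites as Jun but activates them more weakly. Junb (probeset 10806585) had values of 8.08, 7.92 and 8.28 in PEC-enriched against 8.36, 8.60 and 8.75 in PEC-deprived isolates, and the groups were separated by 0.08 between their nearest arrays. The log2 fold change of Junb was -0.48 (95% interval -0.79 to -0.16, standard error 0.135, limma adjusted p = 0.281). Atf3, a stress-induced member of the ATF/CREB family that pairs with Jun proteins or represses transcription as a homodimer, had 7.25, 7.16 and 7.54 in PEC-enriched and 7.82, 7.45 and 7.82 in PEC-deprived isolates (probeset 10770710). Both isolates had 1 array inside the other's range, PEC-enriched replicate 3 and PEC-deprived replicate 2, the same arrays that overlapped in Fos. Its log2 fold change was -0.38 (95% interval -0.71 to -0.05, standard error 0.143, limma adjusted p = 0.4).

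Egr1 encodes a zinc finger factor of GC-rich sites, and its promoter is a textbook target of serum response factor. The RefSeq promoter window of Egr1 (build GRCr8, chr18:26736828-26737127, plus strand, 250 bases before to 50 after the annotated start) is shown because it holds 2 CArG boxes, at -105 to -96 and -83 to -74, and 2 cAMP response element half-sites. The windows of Egr1 and Nr4a1, whose groups overlapped, stand here, and those of the 2 members with the smallest p follow with their values. Capitals mark matches to CArG boxes, cAMP response elements or their half-sites, AP-1 sites and EGR sites.
Egr1: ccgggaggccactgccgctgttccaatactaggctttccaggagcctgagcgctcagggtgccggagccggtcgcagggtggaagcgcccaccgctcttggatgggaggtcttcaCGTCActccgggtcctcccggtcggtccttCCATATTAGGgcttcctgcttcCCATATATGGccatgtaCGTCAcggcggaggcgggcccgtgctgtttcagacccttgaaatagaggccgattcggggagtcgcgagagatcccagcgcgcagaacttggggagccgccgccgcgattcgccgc
Nr4a1: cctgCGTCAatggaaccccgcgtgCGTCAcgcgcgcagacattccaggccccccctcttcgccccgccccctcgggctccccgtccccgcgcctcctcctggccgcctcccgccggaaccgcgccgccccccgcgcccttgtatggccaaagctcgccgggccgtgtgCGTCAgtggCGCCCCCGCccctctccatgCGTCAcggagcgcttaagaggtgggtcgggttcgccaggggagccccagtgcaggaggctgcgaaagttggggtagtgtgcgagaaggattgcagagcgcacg
The Egr1 values (probeset 10800919) were 7.63, 7.37 and 7.57 in PEC-enriched and 7.56, 7.81 and 8.05 in PEC-deprived isolates. PEC-deprived replicate 1 lay among the PEC-enriched arrays. The log2 fold change was -0.28 (95% interval -0.60 to 0.04, standard error 0.14, limma adjusted p = 0.56), and it was -0.16 without PEC-deprived replicate 3 and -0.41 without PEC-deprived replicate 1.

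Nr4a1, an orphan nuclear receptor also known as Nur77, had the widest spread of the members among PEC-enriched arrays, with a mean ± SD of 8.47 ± 0.525, against 9.01 ± 0.174 among PEC-deprived arrays (3 arrays each). Its window (GRCr8, chr7:134259888-134260187, plus strand) precedes the start of an annotated transcript inside the gene and holds 4 cAMP response element half-sites and 1 EGR site. Nr4a1 (probeset 10899387) had values of 8.33, 8.03 and 9.05 in PEC-enriched against 9.19, 9.0 and 8.84 in PEC-deprived isolates, so that PEC-enriched replicate 3 stood with the PEC-deprived arrays and the other two well below them. The log2 fold change of -0.54 (95% interval -1.09 to 0.01, standard error 0.239, limma adjusted p = 0.49) was -0.83 without PEC-enriched replicate 3 and -0.32 without PEC-enriched replicate 2. Its relative Nr4a3 had the same arrangement, with 5.96, 6.06 and 6.68 in PEC-enriched and 6.68, 6.82 and 6.67 in PEC-deprived isolates. These Nr4a3 values lay close to or below the array medians of 6.69 to 6.75. The other relative, Nr4a2, instead had its lowest value of all 6 arrays on PEC-enriched replicate 3, at 6.93.

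The remaining members are genes that limit the response or whose role is less defined. Dusp1 encodes a phosphatase that inactivates MAP kinases in the nucleus, and Ier2 a short-lived nuclear protein. Their windows are shown because these are the 2 members with a complete cAMP response element, TGACGTCA, and also the 2 with the smallest p. The Dusp1 window is GRCr8 chr10:17184603-17184902 and the Ier2 window GRCr8 chr19:40399123-40399422, both on the plus strand, with the element at -124 to -117 in Dusp1 and at -66 to -59 in Ier2.
Dusp1: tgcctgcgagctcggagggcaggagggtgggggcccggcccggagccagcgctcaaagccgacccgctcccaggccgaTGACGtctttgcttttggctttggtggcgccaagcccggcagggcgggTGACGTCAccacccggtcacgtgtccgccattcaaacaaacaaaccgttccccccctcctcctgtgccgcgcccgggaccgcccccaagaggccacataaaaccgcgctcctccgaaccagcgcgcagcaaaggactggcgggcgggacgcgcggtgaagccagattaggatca
Ier2: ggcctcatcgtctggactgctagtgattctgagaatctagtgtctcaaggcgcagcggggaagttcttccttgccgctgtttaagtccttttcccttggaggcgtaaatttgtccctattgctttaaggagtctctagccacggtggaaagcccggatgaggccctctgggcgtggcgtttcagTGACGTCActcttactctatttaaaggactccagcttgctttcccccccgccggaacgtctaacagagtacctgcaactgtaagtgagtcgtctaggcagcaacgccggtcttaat
Dusp1 (probeset 10732652) had values of 10.46, 10.07 and 10.40 in PEC-enriched and 10.80, 10.94 and 10.92 in PEC-deprived isolates. The groups were apart by 0.34 between their nearest arrays, and PEC-enriched replicate 2 was the lowest. The mean ± SD was 10.31 ± 0.209 for PEC-enriched arrays, against 10.89 ± 0.078 for PEC-deprived arrays (3 arrays each). The log2 fold change was -0.58 (95% interval -0.85 to -0.30, standard error 0.121, limma adjusted p = 0.182), the lowest of the group. Dusp1 is among the genes the study selected on these same arrays, at an adjusted p under 0.01 by its own Bayesian t-test. The limma fit here did not reach that threshold, and the direction of Dusp1 is not independent evidence.

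Ier2 (probeset 10806685) was the member with the widest gap between groups and the smallest spread within the PEC-deprived isolates. Its values were 7.84, 7.63 and 7.73 in PEC-enriched against 8.23, 8.22 and 8.32 in PEC-deprived isolates, with 0.38 between the nearest arrays. The mean ± SD was 7.73 ± 0.103 for PEC-enriched arrays, against 8.26 ± 0.0569 for PEC-deprived arrays (3 arrays each). The log2 fold change was -0.53 (95% interval -0.74 to -0.31, standard error 0.0941, limma adjusted p = 0.162). Zfp36 encodes tristetraprolin, which binds AU-rich elements and speeds the decay of many cytokine and immediate early mRNAs. Zfp36 (probeset 10720215) had values of 8.88, 8.53 and 8.63 in PEC-enriched and 9.0, 9.06 and 9.18 in PEC-deprived isolates, and the groups did not overlap. Its log2 fold change was -0.40 (95% interval -0.67 to -0.13, standard error 0.117, limma adjusted p = 0.296).

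**Figure D2:**
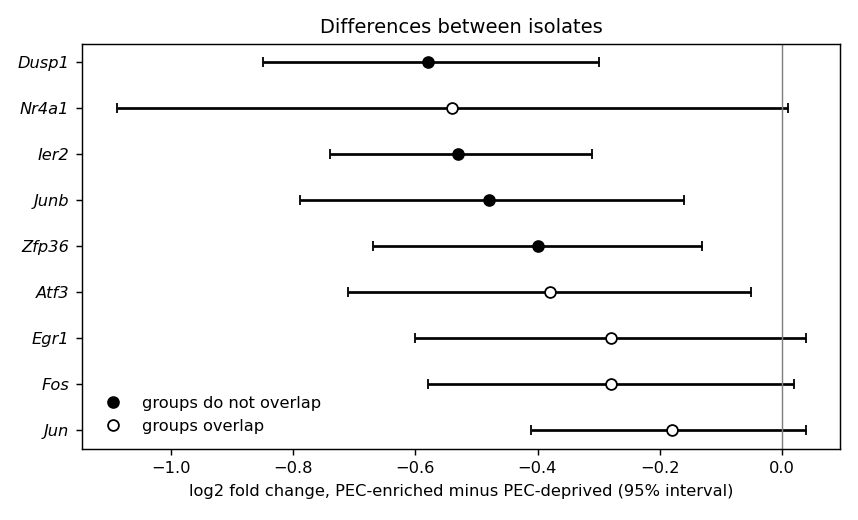
log2 fold change of each member (x axis, PEC-enriched minus PEC-deprived, with its 95% interval from limma), filled where the 3 arrays of each group do not overlap. All 9 points lie below 0, from -0.58 for Dusp1 to -0.18 for Jun, and the intervals of Nr4a1, Egr1, Fos and Jun reach past 0.

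The promoter windows were searched for 6 motifs on both strands. Windows were found for 7 of the 10 genes (Fosb, Junb, Egr1, Dusp1, Nr4a1, Ier2 and Zfp36). The cAMP response element TGACGTCA was in 2 of the 7, Dusp1 and Ier2, and in 1.83% of the 33469 RefSeq windows of the same length. Its half-site TGACG, which also lies within the full element, was in 5 of the 7 (Junb, Egr1, Dusp1, Nr4a1 and Ier2) and in 21.2% of all windows. CArG boxes were in 2 of the 7, Egr1 and Zfp36, and in 1.64% of all. The EGR site GCGNGGGCG was in 2 of the 7, Nr4a1 and Zfp36, against 4.98%, and TATAAA in 2, Fosb and Junb, against 14.2%. The AP-1 site TGANTCA was in 0 of the 7 and in 7.33% of all windows, which says only that these letters are not in the searched stretch. Of the 4 members whose isolates did not overlap, Dusp1 and Ier2 held the full cAMP element, Junb a half-site and Zfp36 a CArG box, so no searched motif was shared by all of them.

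The members also shared an arrangement over the arrays. PEC-enriched replicate 2 had the lowest value of all 6 arrays in 8 of the 9 genes, the exception being Jun, and PEC-deprived replicate 3 had the highest in 7 of the 9, the exceptions being Dusp1 and Nr4a1. Averaged over the 9 genes after centring each on its mean, the values were -0.17, -0.36 and -0.07 in PEC-enriched replicates 1, 2 and 3, against 0.16, 0.15 and 0.29 in PEC-deprived replicates 1, 2 and 3, on the log2 scale. The centred averages of the isolates therefore did not overlap, although 5 single genes did. PEC-enriched replicate 2 was also the lowest array in the centred averages of the endothelial, leukocyte and mesangial markers given below. It was not the lowest in those of the podocyte, tubule, smooth muscle and parietal markers. The share of all genes lowest on that array was not counted. Ier2, Junb and Zfp36 lay closest to this average profile, with root mean square distances of 0.0931, 0.0938 and 0.105, and Nr4a1 farthest, at 0.276.

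Marker genes of other cell types were read on the same arrays, and limma called 0 of them at an adjusted p under 0.01. The regularised t-test called 5 of 5 thick ascending limb markers higher at that threshold, against 87 of all 14506 genes. It also called 3 of 5 distal tubule and collecting duct markers and 3 of 4 parietal markers higher, and none of the other marker lists. All 10 measured endothelial markers had a lower mean in PEC-enriched isolates, against 55.2% of all genes. Each had an unadjusted p under 0.05 in limma with a lower mean, against 5.65% of all genes. Their median log2 fold change was -0.49, and in 6 of the 10 the groups did not overlap, against 9.0% of all genes. On the same centred scale the endothelial list stood at 0.11, -0.43 and -0.41 in PEC-enriched replicates 1, 2 and 3, against 0.17, 0.31 and 0.25 in PEC-deprived isolates. The centred averages of the endothelial list thus did not overlap between the isolates either, as for the immediate early genes. All 6 leukocyte markers had a lower mean too (median -0.45), at 0.26, -0.59 and -0.33 in PEC-enriched and 0.25, 0.10 and 0.32 in PEC-deprived isolates. The 4 mesangial markers also had lower means (median -0.36), at 0.34, -0.55 and -0.36 in PEC-enriched and 0.20, 0.18 and 0.19 in PEC-deprived isolates. The centred averages of the leukocyte and mesangial lists overlapped between the isolates. The 5 podocyte markers, which were bright on every array, had a median of 0.05. Higher means were found for all 7 proximal tubule markers (median 1.02) and all 5 of the thick ascending limb (2.22). The distal tubule and collecting duct list had 5 of 5 higher (1.21), and smooth muscle 4 of 4 (0.47). The smallest of the smooth muscle differences was only 0.02, with overlapping groups. All 4 markers of the parietal epithelium were higher (1.42), the direction the labels give. None of these 4 overlapped between the groups, against 9.68% of all genes separated in that direction. These 4 and all 5 thick ascending limb markers are among the genes the study selected on these same arrays. So are some markers of the distal tubule and collecting duct, proximal tubule, smooth muscle and endothelial lists. Their direction, separation and calls are not independent evidence. The part of these cell types in the differences of the immediate early genes was not tested.

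**Figure D3:**
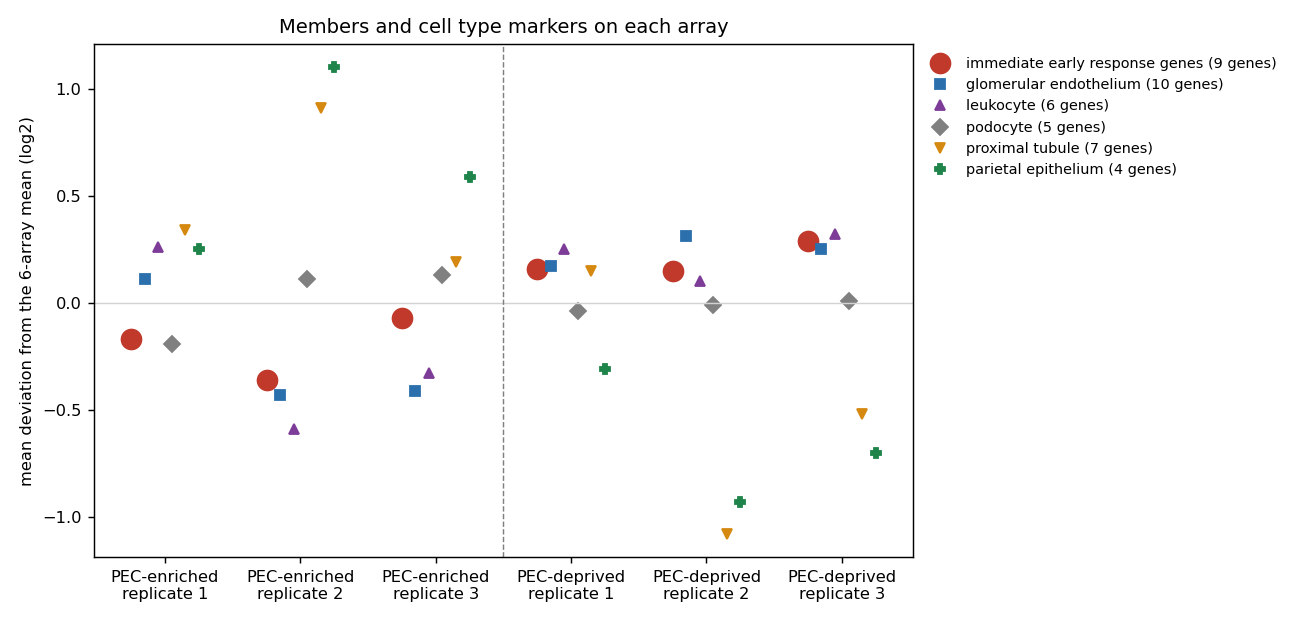
Mean deviation from the 6-array mean (y axis, log2) of the 9 immediate early response genes and of 5 marker lists on each array (x axis). The immediate early genes lie at -0.07 or below on the PEC-enriched arrays and at 0.15 or above on the PEC-deprived arrays. The endothelial markers lie at 0.11 or below and at 0.17 or above, and the leukocyte markers overlap between the isolates.

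The closest relatives of the members were examined as 4 lists, which held 27 genes, all measured. Of these, 25 had a lower mean in PEC-enriched isolates (92.6%, against 55.2% of all genes), with a median log2 fold change of -0.21. An unadjusted p under 0.05 with a lower mean was found in 11 of the 27, against 5.65% of all genes, and in 11 the PEC-enriched arrays all lay below the PEC-deprived arrays, against 9.0%. At an adjusted p under 0.01, limma and the regularised t-test each called 0 of the 27. All 8 genes of the MAP kinase phosphatase list, which does not hold the whole family, had lower means. Their median was -0.28, and in 5 of them the groups did not overlap. Dusp6, the cytoplasmic phosphatase of ERK, had 9.74, 9.37 and 9.56 in PEC-enriched and 10.02, 9.96 and 10.12 in PEC-deprived isolates, without overlap (log2 fold change -0.48, standard error 0.115, limma adjusted p = 0.216). Dusp5, a nuclear ERK phosphatase, had 8.15, 7.48 and 7.75 in PEC-enriched and 8.31, 8.15 and 8.27 in PEC-deprived isolates, where PEC-enriched replicate 1 reached the lowest PEC-deprived array (log2 fold change -0.45, limma adjusted p = 0.374). Dusp2 had the smallest difference of the list, -0.06 (95% interval -0.25 to 0.13).

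Of the EGR and NR4A relatives, 5 of 5 had lower means. Nr4a2 had 7.16, 7.09 and 6.93 in PEC-enriched and 7.24, 7.43 and 7.67 in PEC-deprived isolates, without overlap, and differed by -0.39 on the log2 scale (95% interval -0.69 to -0.09, limma adjusted p = 0.343). The change was -0.49 for Nr4a3, -0.21 for Egr3, -0.20 for Egr2 and -0.12 for Egr4, with no adjusted p under 0.343 in this list. Of 9 AP-1 and small Maf relatives, 8 had lower means, among them Fosl2 at -0.27 and Jdp2, a repressor that pairs with Jun, at -0.26, each without overlap. Mafg stood at 0.08. In the IER and ZFP36 families, 4 of 5 had lower means, with Zfp36l1 at -0.26 and Ier5 at -0.24, while Ier3 was the exception at 0.07.

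**Figure D4:**
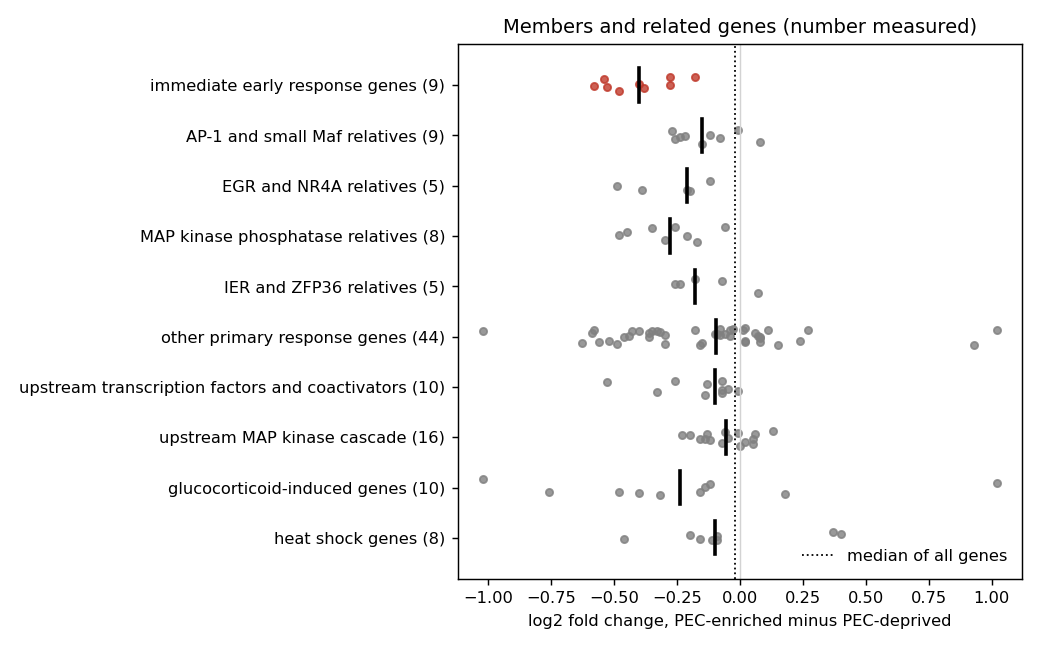
log2 fold change (x axis, PEC-enriched minus PEC-deprived) of each measured gene of the immediate early group (top row) and of 9 related lists, with the list median as a bar and the median of all genes (-0.02) as a dotted line. The immediate early genes have the lowest list median, -0.40, of the 10 lists shown, and the other primary response genes spread from -1.02 to 1.02.

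Other genes of the primary response did not all lie on the same side. Of 44 measured of 47 listed, 29 had a lower and 15 a higher mean, with a median of -0.10, so that 65.9% were lower, against 55.2% of all genes. At an unadjusted p under 0.05, 17 were lower, against 5.65% of all genes, and 2 higher, against 7.96%, and 0 passed an adjusted p under 0.01. The 2 that were higher at this level were Errfi1, an inhibitor of the EGF receptor, and Ccl2, a monocyte chemokine. Errfi1 had 9.61, 9.80 and 9.80 in PEC-enriched and 9.32, 8.21 and 8.63 in PEC-deprived isolates (log2 fold change 1.02, standard error 0.246, limma adjusted p = 0.218). Ccl2 had 7.14, 7.75 and 7.42 in PEC-enriched and 6.59, 6.51 and 6.41 in PEC-deprived isolates (log2 fold change 0.93, standard error 0.152, limma adjusted p = 0.153). Neither gene overlapped between the groups. Both were also among the genes the study selected on these arrays, at an adjusted p under 0.01 by its own test. The lowest were Per1, a clock gene that is also an immediate early gene, at -1.02 (limma adjusted p = 0.367) and Plk2, a polo-like kinase, at -0.63 (limma adjusted p = 0.407), both with overlapping groups.

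The genes upstream of the response were examined as 2 lists, in which limma called 0 genes at an adjusted p under 0.01. Among 10 measured transcription factors and coactivators of 13 listed, the mean was lower in all 10, against 55.2% of all genes. Their median was -0.10, and 3 had a lower mean with an unadjusted p under 0.05, against 5.65% of all genes. Srf, the serum response factor itself, had 9.20, 9.27 and 9.46 in PEC-enriched and 9.42, 9.36 and 9.53 in PEC-deprived isolates, with overlap and a log2 fold change of -0.13 (95% interval -0.37 to 0.11, limma adjusted p = 0.783). Its ternary complex partners ranged from -0.53 for Elk3 and -0.33 for Elk4 to -0.01 for Elk1 (limma adjusted p = 0.382, 0.407 and 0.989). Elk3 was low on PEC-enriched replicates 2 and 3, at 10.55 and 10.33, and stood at 11.14 on PEC-enriched replicate 1, against 11.06, 11.26 and 11.29 in PEC-deprived isolates. Of 16 measured genes of the MAP kinase cascade, 10 had a lower and 6 a higher mean (62.5% lower, against 55.2% of all genes). Their median was -0.05, with a range of -0.23 for Rps6ka4 to 0.13 for Mapkapk2. A lower mean with an unadjusted p under 0.05 was found in 1 of the 16, near the 5.65% of all genes. Heat shock genes, which mark another stress response, were divided, with 6 lower and 2 higher of 8 and a median of -0.10. Hspb1 stood at -0.46 (limma adjusted p = 0.251), and the mitochondrial chaperonins Hspd1 and Hspe1 at 0.40 and 0.37 (limma adjusted p = 0.34 and 0.322).

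The 5 genes whose centred profile over the 6 arrays was nearest to the mean profile of the members were Cerk, Mxd4, Plekho1, Nfkbia and Sqor, out of 7245 genes above the median level. Their root mean square distances lay between 0.0501 and 0.0673 on the log2 scale. Nfkbia, the inhibitor of NF-kappa-B and itself a rapidly induced gene, had 10.48, 10.27 and 10.44 in PEC-enriched and 10.86, 10.88 and 10.93 in PEC-deprived isolates, without overlap (log2 fold change -0.49, limma adjusted p = 0.166). PEC-enriched replicate 2 was the lowest array in all 5 of these genes. This and the lack of overlap in Nfkbia follow largely from choosing the genes by nearness to the members' profile. The likeness is a description over 6 arrays that all of these genes share.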

How the data were processed

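RNA of 3 PEC-enriched and 3 PEC-deprived isolates was hybridised to Affymetrix Rat GeneChip 1.0ST arrays, 1 array per preparation. Per the study's methods the authors used RMA (background adjustment and quantile normalization), a tool listed in the submitters' processing notes too, and the deposited values are log2 expression values of 29215 probesets. The RMA software, its version and the genome build were not given in the sources. The values were read as log2 because they reach 13.87, above the natural logarithm (11.09) and below the log2 (16.0) of the 16-bit scanner maximum. The number of arrays limits the precision, and signal over background is unknown.

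All probesets entered 1 limma fit (version 3.58.1, R 4.3.3) by lmFit and eBayes with the isolate as the single term. Its two-sided p-values were adjusted by Benjamini-Hochberg, and the threshold was 0.01. Symbols came from the platform annotation (15310 probesets with 1 symbol, 323 with several, 13582 with none), and 14481 of the 14506 genes had a current RefSeq symbol. Promoter windows were those of RefSeq on GRCr8, used for sequence only. The members and lists were chosen with earlier results of these data known. Besides the 10 members, all relatives and up to 2 of the highest and 2 of the lowest genes of each other list could be named. The 5 genes nearest in profile were also named, and Srf, Fkbp5 and Klf9 were named after their values were seen. No arrays were identical, with correlations of 0.9816 to 0.9937. Alternatives included a replicate block, robust eBayes, an intensity trend, a regularised t-test (prior weight 10), array weights, 2 probeset filters, median centring, cyclic loess, gene means, an adjusted p under 0.05 and each array left out. In simulated data with 200 changed probesets in each of 5 sets of 29215, limma recovered 55.4% of log2 changes of 1 and 92.8% of changes of 2, with 1.07% of calls false, and the regularised t-test 85.4% and 99.8%, with 12.2% false. Changes as small as those of the members were not simulated, and the simulated noise was independent and normal. On the arrays themselves limma called 0 probesets, though the thick ascending limb markers had a median log2 fold change of 2.22. The simulated recovery therefore need not hold for these arrays. Figures were drawn with matplotlib 3.10.9.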

Additional observations from a re-analysis of the deposited data

How the results depend on the processing

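With single arrays left out, the 9 immediate early genes all kept a lower mean, and their median log2 fold change ran from -0.49 (without PEC-enriched replicate 3) to -0.32 (without PEC-enriched replicate 2). The number with an unadjusted p under 0.05 ran from 4 to 7, and 0 of the 9 passed an adjusted p under 0.01. The median of the related lists ran from -0.16 to -0.11 without single arrays, against -0.13 with all. The count over all probesets ran from 0 to 1 without single arrays, the 1 being without PEC-deprived replicate 1, and was 119 by the regularised t-test, against 0 in limma, where 3048 had an unadjusted p under 0.05. The smallest adjusted p of a member was 0.0377 (Dusp1) by that test and 0.0517 (Ier2) in limma over probesets with 1 symbol only. With the replicate number as a block, 0 of the 9 passed, the median stayed at -0.40 and the smallest adjusted p of a member was 0.32. The labels do not tie a number to a rat, so same-numbered samples were not treated as pairs in the main fit. Their deviations correlated at -0.029, 0.052 and 0.1, and those of differently numbered samples at -0.135 to 0.083. These correlations cannot tell whether isolates share a rat. The intervals and p-values of the main fit treat the arrays as independent. Under the other settings all measured members kept a lower mean and the median lay between -0.44 and -0.38. Fos dropped out where only probesets above the median level were kept. No setting turned the direction of a member.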

Other observations

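Genes known to be induced by glucocorticoids were measured beside the members, since Dusp1 and Zfp36 are known to respond to these hormones too. The list of 10, which shares Per1, Errfi1, Sgk1 and Cebpd with the primary response genes, had a median log2 fold change of -0.24, with 8 lower and 2 higher means. Its centred average was -0.34, -0.32 and 0.33 in PEC-enriched replicates 1, 2 and 3, against 0.40, -0.01 and -0.06 in PEC-deprived replicates 1, 2 and 3, so the isolates overlapped. PEC-enriched replicate 3 stood apart from the other PEC-enriched arrays in several of these genes. Zbtb16, a zinc finger repressor, had 6.77, 6.79 and 8.46 in PEC-enriched and 8.92, 7.98 and 7.39 in PEC-deprived isolates. Per1 had 7.45, 7.17 and 8.76 in PEC-enriched isolates, against 8.93, 8.92 and 8.59 in PEC-deprived isolates, and Fkbp5, a co-chaperone of the glucocorticoid receptor, 7.91, 7.60 and 8.98 in PEC-enriched isolates, against 9.04, 8.49 and 8.17. Among the PEC-enriched arrays, 4 of the 9 members were highest on replicate 3 (Fos, Junb, Atf3 and Nr4a1). Another 4 were highest on replicate 1 (Egr1, Dusp1, Ier2 and Zfp36) and 1 on replicate 2 (Jun). A part of glucocorticoids in the differences of the members was not tested. Klf9, a factor of the same list, differed by -0.48 on the log2 scale (95% interval -0.76 to -0.21, limma adjusted p = 0.228). Fkbp5 and Klf9 were named after their values were seen.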
